A study of Mus musculus with 15 samples.

Results

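Pde7b, Fam151a, Serpina6 and Pim3 are 4 genes that were higher in 266-6 cells given an agonist of the retinoic acid receptor and an agonist of the retinoid X receptor together than in vehicle-treated cells. They were chosen by their values in earlier results of these data: all 4 were among the 21 genes with a false discovery rate (FDR) under 0.05 for that comparison in an edgeR fit that carried a term for library set, described further on. They are 4 of 43432 gene identifiers in the count table and 4 of the 16736 genes with enough reads to be tested, and no member was lost to the filter on low counts. Because that comparison chose them, their levels under the joint treatment and vehicle are given as a description. Comparisons among AM580, CD3254 and 9cRA use the levels of neither of those groups, but they are not wholly independent of the choice, since the fit ran over all 15 libraries and took each gene's spread and the library set term from all of them. A gene with little scatter passed more easily, so the standard errors and intervals of the members may be too small.

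Libraries were made from total RNA of the mouse pancreatic acinar line 266-6, which came from a pancreatic tumour of a mouse carrying a viral oncogene under an elastase promoter. The 15 libraries fall into 5 groups of 3. The first received AM580, an agonist selective for the alpha form of the retinoic acid receptor, with CD3254, an agonist of the retinoid X receptors (written AM+CD below). The others received AM580 alone, CD3254 alone, 9-cis retinoic acid (9cRA), a ligand of both receptor families, or the vehicle DMSO. All groups were grown in medium with 10% serum, kept in stripped medium for 24 h and exposed to ligand for 24 h. The labels state no ligand concentrations, and every library comes from 1 cell line. Whether replicates were separate cultures is not stated, so each p-value reflects the scatter of these libraries, which could be technical.

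Retinoic acid receptors (RAR) bind DNA as heterodimers with retinoid X receptors (RXR), usually at pairs of short hexamer half-sites arranged as direct repeats, and ligand binding exchanges corepressors for coactivators. Some RXR heterodimers respond to RXR ligands alone, whereas in the RAR heterodimer the RXR ligand is known mainly to add to the effect of an RAR ligand. Serpina6 encodes corticosteroid-binding globulin, a secreted member of the serpin family that carries glucocorticoids in plasma and is made chiefly in liver. Pde7b encodes a phosphodiesterase specific for the second messenger cyclic AMP (cAMP), and Pim3 encodes a serine/threonine kinase of the PIM family, which promotes cell survival and growth and needs no activating phosphorylation. Fam151a encodes a membrane protein for which no role is stated here.

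Promoters are shown because the ligands act on receptors that bind DNA at known half-sites. RefSeq's table for GRCm38.p6 held a promoter for 3 of the 4 members, which are Pde7b, Fam151a and Pim3. Each run below covers the 250 bases before the annotated start, 5′ to 3′ on the gene's strand, and capitals mark any match, on either strand, to the half-site AGGTCA, to its variant GGGTCA, to the variant AGTTCA or to the variant GGTTCA.
Pde7b: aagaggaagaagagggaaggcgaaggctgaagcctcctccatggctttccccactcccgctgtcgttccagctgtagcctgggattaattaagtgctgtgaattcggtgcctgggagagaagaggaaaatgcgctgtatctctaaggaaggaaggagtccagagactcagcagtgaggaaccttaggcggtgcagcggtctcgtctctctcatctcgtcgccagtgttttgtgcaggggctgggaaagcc
Fam151a: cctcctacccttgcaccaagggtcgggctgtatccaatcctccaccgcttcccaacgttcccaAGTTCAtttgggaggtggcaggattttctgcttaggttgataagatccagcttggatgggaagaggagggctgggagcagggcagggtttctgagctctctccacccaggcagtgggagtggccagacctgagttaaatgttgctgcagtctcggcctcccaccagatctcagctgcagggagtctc
Pim3: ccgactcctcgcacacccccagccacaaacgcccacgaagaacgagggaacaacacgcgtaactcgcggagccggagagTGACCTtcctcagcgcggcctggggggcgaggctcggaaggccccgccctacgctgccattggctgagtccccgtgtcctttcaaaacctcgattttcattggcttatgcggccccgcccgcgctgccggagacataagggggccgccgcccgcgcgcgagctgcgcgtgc
The Pde7b run lies at chr10:20548329-20548578 on the minus strand, ahead of an internal start of the gene, since the longest annotated transcript begins at position 20725078. It held no half-site. The Fam151a run lies at chr4:106733665-106733914 on the plus strand and held AGTTCA from 187 to 182 bases before the start. The Pim3 run lies at chr15:88861944-88862193 on the plus strand and held AGGTCA on the minus strand (TGACCT as printed), from 171 to 166 bases before the start. Among the promoters of 250 bases in the table, 32851 in all, 38.64% held at least 1 of the 4 half-sites, AGGTCA stood in 14.02% and AGTTCA in 11.84%, so the matches are a description and not evidence of binding. Direct repeats of a half-site with spacers of 1, 2, 4 or 5 bases, which stood in 0.1644%, 0.1735%, 0.06697% and 0.08828% of all promoters, were in none of the 3 runs. Pim3's run was the richest in CpG, with 31 CpG and 68.0% G and C, while that of Pde7b had 10 CpG and 55.2% and that of Fam151a had 4 CpG and 57.2%.

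Reads assigned to genes numbered 28501170 to 46801058 in 14 libraries and 14600962 in 9cRA replicate 3. The first principal component, with 48.3% of the variance, separated 5 libraries (AM+CD replicate 2 and replicate 1 of AM580, CD3254, 9cRA and DMSO) from the other 10, and each group has 1 library in the smaller set. The summed level of 12 genes known to be induced by low oxygen was 5883 to 8262 CPM in the smaller set and 1030 to 1511 CPM in the larger. In 9cRA replicate 3, 63.0% of reads fell outside genes, against 18.1% to 28.5% elsewhere, and it stood alone on the second component. The labels name no batch for either. Acinar markers were present, with Ctrb1 at 3841 to 7201 CPM and Cela1 at 777 to 3275 CPM, although Amy2a5, Cpb1 and Pnlip stayed at or near 0. In bulk RNA, more expressing cells and more RNA per cell cannot be told apart.

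The 4 genes were expressed at very different levels. Per kilobase of exon, Pim3 averaged 98.6 RPKM over the 15 libraries, which placed it at the 97.1 percentile of tested genes. Serpina6 averaged 9.45 RPKM, Fam151a 2.41 RPKM and Pde7b 0.210 RPKM, at the 66.1, 38.2 and 10.5 percentiles. Pde7b and Fam151a rested on 23 to 321 and 20 to 398 reads per library, Serpina6 on 97 to 1568 and Pim3 on 3430 to 16645. Pim3 therefore has the most precise counts and Pde7b and Fam151a the least. All levels below are CPM, read counts divided by library size after scaling with the trimmed mean of M-values (TMM).

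**Figure D1:**
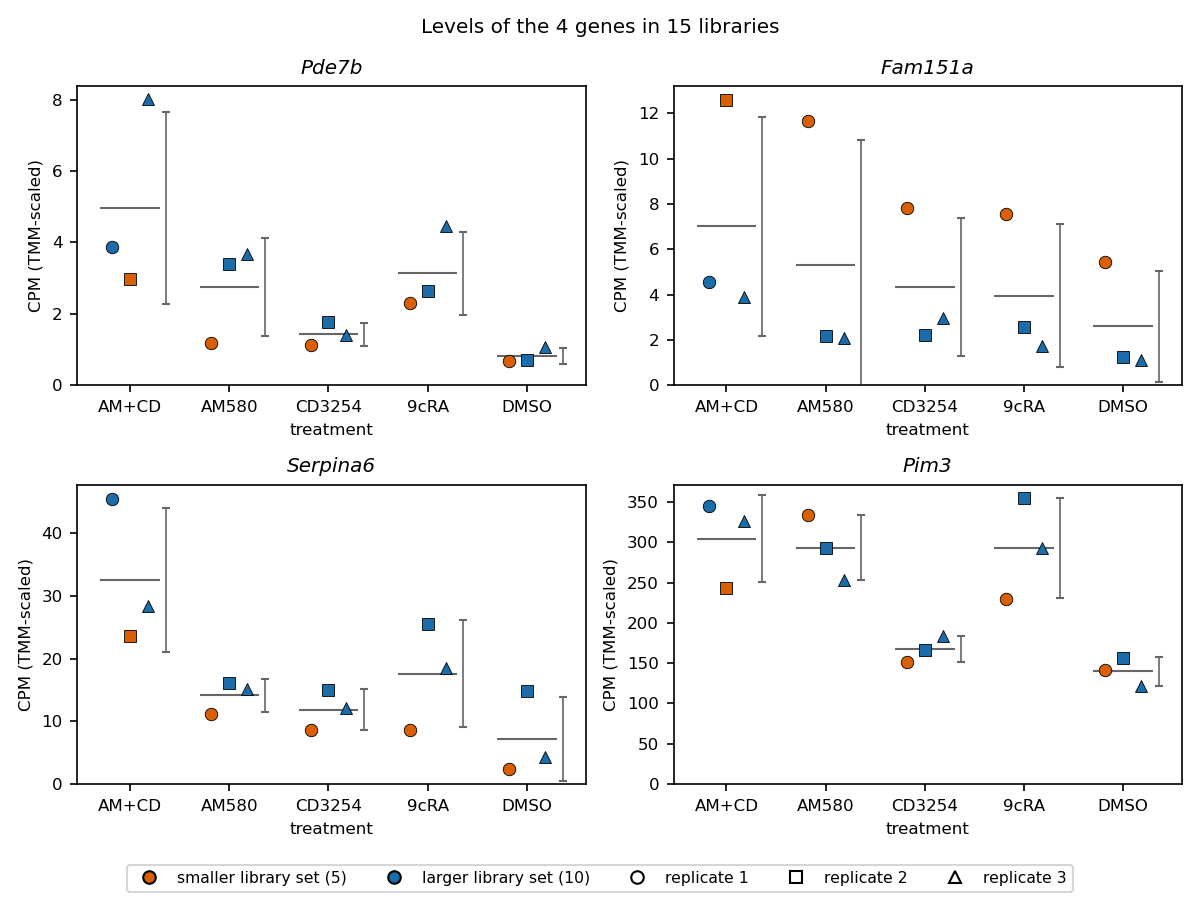
CPM of Pde7b, Fam151a, Serpina6 and Pim3 (y axes, linear from 0) in each of the 15 libraries, by treatment (x axes); horizontal lines are group means, bars beside them are 1 SD (n = 3, cut at 0), marker shape is the replicate number and orange marks the 5 libraries of the smaller set. Pim3 forms a high block of AM+CD, AM580 and 9cRA and a low block of CD3254 and DMSO, while the orange libraries are the highest of each group for Fam151a.

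Pim3 (ENSMUSG00000035828), at chr15:88862186-88865726 on the plus strand in GRCm38, was higher wherever an RAR ligand was present. It had 345, 243 and 326 CPM in AM+CD cells, 333, 293 and 253 CPM in AM580 cells and 230, 354 and 293 CPM in 9cRA cells. CD3254 cells had 152, 166 and 184 CPM and DMSO cells had 142, 156 and 121 CPM. The lowest library with an RAR ligand thus stood above the highest library without one, a separation that 12 tested genes showed, or 0.0717%. This split holds the AM+CD and DMSO libraries that chose Pim3, so it was partly preset and the share is a description.

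AM580 against CD3254 and 9cRA against CD3254 set Pim3 under an RAR ligand beside Pim3 under the RXR agonist, at levels that the choosing comparison did not set against each other. Pim3 was higher in AM580 than in CD3254 cells by 0.81 ± 0.20 on the log2 scale (SE, 95% interval 0.38 to 1.24), at 293 ± 40.3 and 167 ± 16.2 CPM (SD, n = 3 each). The 3 AM580 libraries lay above the 3 CD3254 libraries, as they did for 3.79% of tested genes. In edgeR's quasi-likelihood test with Benjamini-Hochberg adjustment over all genes the FDR of this difference was 1.00, or 0.634 with the library set term, so it did not pass. Within library sets it was 1.13 for the 1 pair in the smaller set and 0.64 in the larger.

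9cRA gave Pim3 almost the same difference from CD3254, 0.81 ± 0.20 (95% interval 0.38 to 1.23, edgeR FDR = 1.00). Its libraries too lay above all CD3254 libraries, as for 3.77% of genes. Within library sets the value was 0.60 in the smaller and 0.88 in the larger, and without 9cRA replicate 3 it was 0.82. Between 9cRA and AM580 the Pim3 difference was -0.00 ± 0.20, with an interval of -0.43 to 0.42, so changes within that interval are not excluded. Within library sets that difference had opposite signs, -0.54 for the 1 pair in the smaller set and 0.24 in the larger.

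Pim3 in AM+CD and AM580 cells differed by 0.06 ± 0.20 (95% interval -0.37 to 0.48), with overlapping libraries. Against DMSO, whose libraries were used in the choice and are shared by all 4 of the comparisons that follow, Pim3 was higher by 1.12 ± 0.20 in AM+CD, 1.07 ± 0.20 in AM580, 0.26 ± 0.20 in CD3254 and 1.07 ± 0.20 in 9cRA cells. For AM580 and 9cRA the edgeR FDR was 0.473 and 0.550 without the library set term and 0.0844 and 0.0734 with it. DESeq2 put both under 0.05, with adjusted p = 0.00120 for AM580 and 0.000999 for 9cRA, so the call of Pim3 under a single RAR ligand depends on the tool. DESeq2 called 10 genes in AM580 against DMSO and 10 in 9cRA against DMSO. In edgeR with the term, 0.0299% of genes passed as higher for AM580, 0.0239% for CD3254 and 0.0299% for 9cRA against DMSO. Of the 4 members, 0 were among them.

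**Figure D2:**
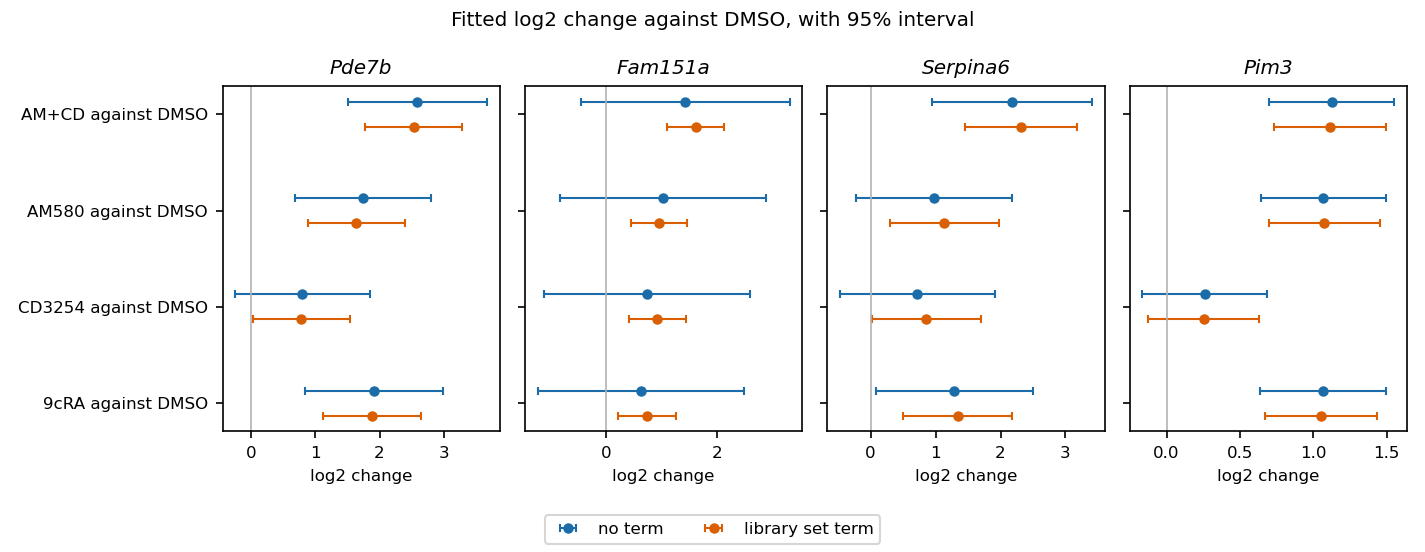
Fitted log2 change of each gene (x axes) for AM+CD, AM580, CD3254 and 9cRA against DMSO (rows), with the 95% interval, from the edgeR fits without (blue) and with (orange) the library set term. The library set term leaves the estimates nearly in place and narrows the intervals most for Fam151a; the AM+CD row is the comparison that chose the genes.

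On the scale per kilobase, Pim3 averaged 125.5 RPKM in AM+CD, 121 in AM580, 68.9 in CD3254, 121 in 9cRA and 57.6 in DMSO cells. Pim1 averaged 5.88 RPKM in AM+CD and 6.52 RPKM in DMSO cells, and Pim2 8.62 and 11.1 RPKM, so Pim3 was the most abundant PIM mRNA in every group. With the library set term, Pim1 differed between AM+CD and DMSO cells by -0.19 ± 0.17 and Pim2 by -0.37 ± 0.19 (edgeR FDR = 1.00 for both). All 21 listed PIM kinases, upstream JAK and STAT factors and PIM substrates were tested. Only Pim3 itself passed in AM+CD against DMSO, the comparison that chose it. With the library set term, 0.125% of tested genes passed as higher there. None of the list passed in AM580, CD3254 or 9cRA against DMSO in either edgeR fit. With the term, 0.0299%, 0.0239% and 0.0299% of tested genes passed as higher in those comparisons. Among substrates, Bad, a promoter of cell death that PIM kinases inactivate, differed by -0.09 ± 0.23, and Cdkn1a, a cell cycle inhibitor, by 0.31 ± 0.12 (FDR = 0.890). The median of this list was 0.03 against -0.01 over all genes.

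Pde7b (ENSMUSG00000019990), at chr10:20398004-20725078 on the minus strand, was highest with both agonists and lowest with DMSO. It had 3.88, 2.97 and 8.02 CPM in AM+CD cells, 1.17, 3.40 and 3.68 CPM in AM580 cells and 1.11, 1.76 and 1.41 CPM in CD3254 cells. 9cRA cells had 2.30, 2.64 and 4.45 CPM and DMSO cells 0.684, 0.694 and 1.08 CPM. The highest DMSO library lay below the lowest library of each of the 4 ligand groups, though narrowly in the case of CD3254. Such a separation from DMSO was found for 2.39% of tested genes in AM+CD, 2.19% in AM580, 2.36% in CD3254 and 2.15% in 9cRA cells. The DMSO libraries, and those of AM+CD, were used in the choice. Group means ran 4.96 ± 2.69 in AM+CD, 3.13 ± 1.15 in 9cRA, 2.75 ± 1.37 in AM580, 1.43 ± 0.325 in CD3254 and 0.820 ± 0.226 CPM in DMSO (SD, n = 3). In that order AM+CD overlapped 9cRA, 9cRA overlapped AM580 and AM580 overlapped CD3254, so these neighbours were not separated beyond their spread.

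Among the ligand groups other than AM+CD, Pde7b was higher in 9cRA than in CD3254 cells by 1.11 ± 0.48 (95% interval 0.08 to 2.15, edgeR FDR = 1.00). All 9cRA libraries lay above all CD3254 libraries, as for 3.77% of tested genes. Without 9cRA replicate 3, the library with the highest Pde7b of its group, the log2 difference was 0.80. AM580 against CD3254 gave 0.95 ± 0.48 (interval -0.08 to 1.97) with overlapping libraries, since AM580 replicate 1 lay within the CD3254 range. Within the larger library set this difference was 1.14 and in the 1 pair of the smaller set 0.07. None of the 4 members passed the FDR threshold in these comparisons in either fit. With the term, 0.00598% of tested genes passed as higher in AM580 than in CD3254, 0.0179% in 9cRA than in CD3254 and 0% in 9cRA than in AM580 cells.

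Against DMSO, the Pde7b log2 change was 2.59 ± 0.50 for AM+CD, 1.74 ± 0.49 for AM580, 0.80 ± 0.49 for CD3254 and 1.91 ± 0.50 for 9cRA. On this scale the values for AM580 and CD3254 added up to nearly that of the joint treatment: the interaction was 0.05 ± 0.70, with a 95% interval of -1.45 to 1.55 that admits large departures either way. AM+CD exceeded AM580 by 0.85 ± 0.47 and CD3254 by 1.79 ± 0.48 without the library set term. With the term the values were 0.89 ± 0.32 and 1.75 ± 0.33, with edgeR FDR = 0.608 and 0.220. Both of these use AM+CD libraries, from which the genes were chosen, and genes that passed as higher with the term were 0.012% against AM580 and 0.0299% against CD3254.

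Pde7b was a minor phosphodiesterase in these cells. Its close relative Pde7a averaged 5.36 RPKM in AM+CD and 5.14 RPKM in DMSO cells, against 0.398 and 0.0659 RPKM for Pde7b. With the library set term Pde7a differed between AM+CD and DMSO cells by 0.07 ± 0.19. Of 24 listed cyclic nucleotide phosphodiesterases 18 were tested, and only Pde7b passed in AM+CD against DMSO, the comparison that chose it. With the term, 0.125% of all tested genes passed as higher there. Pde3a, at 6 to 24 reads in the AM+CD libraries, had 1.34 ± 0.58 (FDR = 0.971) and Pde8b 0.40 ± 0.25 (FDR = 1.00), while Pde4d had 0.18 ± 0.21. Of 21 listed adenylyl cyclases, protein kinase A subunits and cAMP-responsive factors 19 were tested and 0 passed in AM+CD against DMSO in edgeR with the term, with 1 at an unadjusted p under 0.05 (Prkar2a, 0.42 ± 0.19), where 4.79% of all tested genes lay under that value. The summed level of the listed phosphodiesterases was 308 to 405 CPM in AM+CD and 289 to 368 CPM in DMSO cells.

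**Figure D3:**
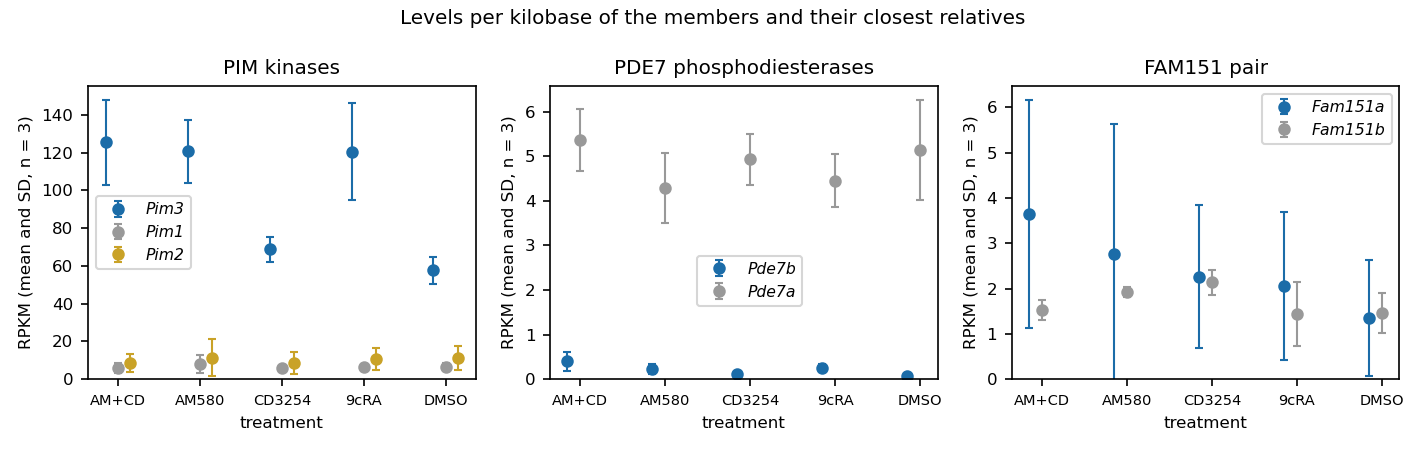
Mean RPKM with 1 SD (n = 3, cut at 0) for Pim3, Pim1 and Pim2 (left), Pde7b and Pde7a (middle) and Fam151a and Fam151b (right), by treatment. Pim3 averages 125.5 RPKM in AM+CD and 57.6 RPKM in DMSO cells while the means of Pim1 and Pim2 stay under 12 RPKM, and Pde7b lies far below Pde7a throughout.

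Serpina6 (ENSMUSG00000060807), at chr12:103646630-103657212 on the minus strand, was highest with both agonists together. It had 45.4, 23.6 and 28.3 CPM in AM+CD cells, 11.2, 16.1 and 15.2 CPM in AM580 cells and 8.54, 14.98 and 12.1 CPM in CD3254 cells. 9cRA cells had 8.59, 25.6 and 18.5 CPM and DMSO cells 2.46, 14.8 and 4.35 CPM. Every AM+CD library lay above every AM580, CD3254 and DMSO library, and 9cRA replicate 2 lay above the lowest AM+CD library. DMSO replicate 2 reached the level of the single-agonist libraries, whereas the other two DMSO libraries lay below all of them. The summed level of 6 hepatocyte markers was 52.5 to 76.1 CPM in AM+CD and 32.8 to 63.2 CPM in DMSO cells, nearly all of it from Alb (13.9 to 35.4 CPM over the 15 libraries) and Ttr (18.7 to 43.6 CPM), while Fgb had at most 1 read in a library. Their part in the Serpina6 values was not tested.

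That DMSO library sets the size of each Serpina6 value against vehicle. The log2 change was 2.17 ± 0.57 for AM+CD, 0.97 ± 0.56 for AM580, 0.72 ± 0.55 for CD3254 and 1.29 ± 0.56 for 9cRA. Without DMSO replicate 2 the values were 3.25, 2.05, 1.79 and 2.37. With the library set term and without that library, AM580 and 9cRA passed, at 1.957 ± 0.270 (edgeR FDR = 0.0344) and 2.197 ± 0.274 (FDR = 0.0132), and CD3254 did not (1.69 ± 0.27, FDR = 0.121). With all 15 libraries these 3 had an FDR of 0.808, 0.980 and 1.00 under the same fit. AM580 and 9cRA against DMSO each passed for Serpina6 in only 1 of 20 settings, where 4 genes passed in each comparison. DMSO replicate 2 was singled out here for its Serpina6 value and belongs to a group used in the choice, so these calls are a description.

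Between single ligands, where no DMSO library enters, no Serpina6 difference passed. AM580 against CD3254 gave 0.25 ± 0.55 (95% interval -0.93 to 1.44), 9cRA against AM580 0.31 ± 0.55 (-0.87 to 1.495) and 9cRA against CD3254 0.56 ± 0.55 (-0.62 to 1.75), each with overlapping libraries. These intervals are wide, so the libraries do not show that the ligands act alike on the gene. The joint treatment exceeded AM580 by 1.20 ± 0.55 and CD3254 by 1.45 ± 0.56 (edgeR FDR = 1.00 for both). Both values use the AM+CD libraries of the choice. AM+CD libraries above all others were found for 2.71% of tested genes against AM580 and for 2.32% against CD3254. The interaction was 0.48 ± 0.78 (interval -1.20 to 2.15).

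Few other serpins of its clade were detected beside Serpina6. Of 25 listed clade A serpins 3 had enough reads to be tested, and only Serpina6 passed in AM+CD against DMSO, the comparison that chose it. With the library set term, 0.125% of all tested genes passed as higher there. Serpina10, an inhibitor of coagulation factors made in liver, lies 15186 bases from Serpina6 on the same strand. It gave 1.23 ± 0.68 with the library set term (FDR = 1.00). Serpina1b gave 0.85 ± 0.81. Glucocorticoid-responsive genes did not pass: of 12 listed genes 11 were tested, and 0 passed in any comparison in either edgeR fit. In AM+CD against DMSO with the term, 0.125% of all tested genes passed as higher, so a count of 0 in so short a list is uninformative. In that fit 1 of the 11 (Klf9) had an unadjusted edgeR p under 0.05 in AM+CD against DMSO, beside 4.79% of all tested genes. Fkbp5, a chaperone induced by the glucocorticoid receptor, had 0.15 ± 0.10, Tsc22d3 -0.11 ± 0.16 and Per1 0.09 ± 0.23, and the receptor gene Nr3c1 had 0.12 ± 0.23. Klf9, also a glucocorticoid-induced transcription factor, had 0.70 ± 0.22 (FDR = 0.600).

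Fam151a differed most between the library sets. It had 4.57, 12.6 and 3.90 CPM in AM+CD cells, 11.7, 2.18 and 2.06 CPM in AM580 cells and 7.82, 2.23 and 2.97 CPM in CD3254 cells. 9cRA cells had 7.56, 2.58 and 1.71 CPM and DMSO cells 5.42, 1.24 and 1.11 CPM. The smaller library set spanned 5.42 to 12.6 CPM and the larger set 1.11 to 4.57 CPM, with no overlap. The sets are the sides of the first principal component of these same data, which held 48.3% of the variance. Such a split is therefore partly preset, and the share of tested genes that show it was not counted. The summed level of the low-oxygen genes, 5883 to 8262 CPM in the smaller and 1030 to 1511 CPM in the larger set, was split in the same way, and their part in the Fam151a difference was not tested. Every treatment group overlapped every other. Within each set AM+CD was highest and DMSO lowest, and the log2 difference between them was 1.21 for the 1 pair in the smaller set and 1.81 in the larger.

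The share of Fam151a's spread that went with library set shows in the fits. The fitted biological coefficient of variation for Fam151a was 0.200 with the term against 0.706 when it was left out, and the median over genes was 0.193 against 0.305. Against DMSO the log2 change was 1.43 ± 0.87 without and 1.62 ± 0.24 with the term for AM+CD, 1.03 ± 0.87 and 0.95 ± 0.24 for AM580, 0.74 ± 0.86 and 0.92 ± 0.24 for CD3254, and 0.62 ± 0.86 and 0.75 ± 0.24 for 9cRA. With the term the single ligands had an FDR of 0.808, 1.00 and 0.980. Between AM580 and CD3254 cells Fam151a differed by 0.03 ± 0.23 with the term (95% interval -0.47 to 0.53). The sign of that difference depended on the set, 0.58 in the smaller and -0.27 in the larger. 9cRA differed from AM580 by -0.21 ± 0.24 and from CD3254 by -0.18 ± 0.24 with the term (FDR = 1.00 and 0.900).

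Fam151a (ENSMUSG00000034871) lies at chr4:106733889-106748292 on the plus strand and overlaps Acot11, an acyl-CoA thioesterase gene on the minus strand. Of the 1923 exon bases of Fam151a, 1263 are also exon bases of Acot11. How the authors' counting treated strand is not known here, and reads of the pair may therefore not be told apart. The RPKM of Fam151a, which divides by all 1923 exon bases, and its percentile may be off for the same reason. Acot11 averaged 2.33 ± 1.09 CPM in AM+CD and 2.22 ± 1.64 CPM in DMSO cells, and its log2 change was 0.07 ± 0.63 (edgeR FDR = 1.00). By library set Acot11 spanned 2.67 to 4.003 CPM in the smaller and 0.785 to 2.03 CPM in the larger, with no overlap, as Fam151a did. The sets were drawn from these same data, and the share of tested genes with such a split was not counted. How far reads of the shared exons enter either split was not tested. The other member of the family, Fam151b, averaged 1.53 RPKM in AM+CD and 1.46 RPKM in DMSO cells and gave 0.09 ± 0.32 with the term.

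**Figure D4:**
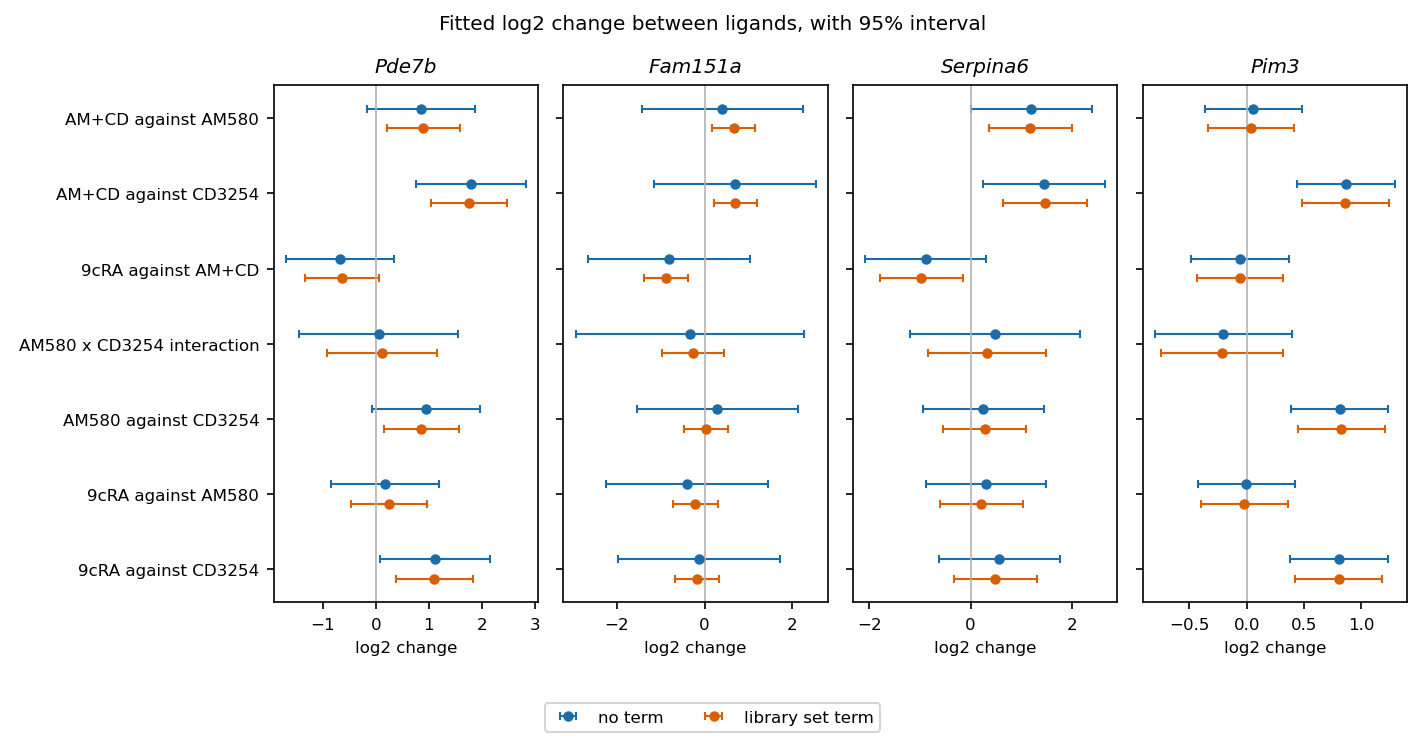
Fitted log2 change (x axes) between ligand groups and for the AM580 by CD3254 interaction (rows), with the 95% interval, from the edgeR fits without (blue) and with (orange) the library set term. Pim3 separates AM580, AM+CD and 9cRA from CD3254 with intervals above 0 and has intervals around 0 among those 3; the interaction intervals of all 4 genes contain 0.

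Set side by side, the members' estimates relative to the single agonists differed. Pim3's mean was 305 ± 54.5 CPM in AM+CD and 293 ± 40.3 CPM in AM580 cells, a log2 difference of 0.06 ± 0.20. The same difference was 0.85 ± 0.47 for Pde7b, 1.20 ± 0.55 for Serpina6 and 0.40 ± 0.85 for Fam151a. The 95% intervals of the 4 members overlapped, and the difference between members was not tested. AM+CD had the highest mean of the 5 treatments in both library sets for Pde7b, Serpina6 and Fam151a, as for 4.68% of tested genes, and Pim3 was higher in AM580 than in AM+CD in the smaller set. The choice of the members favoured a high AM+CD mean, so that share is a description. 9cRA against AM+CD uses the AM+CD libraries of the choosing comparison. Without the library set term it gave -0.68 ± 0.47 for Pde7b, -0.89 ± 0.55 for Serpina6, -0.81 ± 0.86 for Fam151a and -0.06 ± 0.20 for Pim3. With the term these were -0.65 ± 0.33, -0.97 ± 0.38, -0.88 ± 0.24 and -0.06 ± 0.18, with an edgeR FDR of 0.888 to 0.956. Leaving out 9cRA replicate 3 gave 1.60 for Pde7b, 1.25 for Serpina6, 0.97 for Fam151a and 1.07 for Pim3 in 9cRA against DMSO, and turned the sign of 9cRA against AM580 for Pde7b (-0.15) and of 9cRA against CD3254 for Fam151a (0.23). No interaction passed, and with the term the estimates were 0.11 ± 0.48, 0.32 ± 0.54, -0.25 ± 0.33 and -0.22 ± 0.25 in the same order of genes.

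In the comparison that chose the members, AM+CD against DMSO with the library set term, the log2 changes were 2.53 ± 0.35 for Pde7b, 1.62 ± 0.24 for Fam151a, 1.11 ± 0.18 for Pim3 and 2.31 ± 0.40 for Serpina6. Their edgeR FDR values, 0.00679, 0.0123, 0.0212 and 0.0414, held ranks 12, 13, 17 and 20 among the 21 genes that passed, which are 0.125% of those tested. Just inside the threshold stood Colgalt2 (FDR = 0.0450) and just outside Lpcat3 (FDR = 0.0823). Without the term 3 genes passed, or 0.0179%, and no member was among them, with FDR = 0.259 for Pde7b, 0.129 for Pim3 and 1.00 for the other pair. With the term, leaving out any 1 of the 6 libraries compared put the FDR of at least 1 member above 0.05, and the FDR ranged from 0.00927 to 0.0709 for Pde7b, 0.0311 to 0.0955 for Fam151a, 0.0329 to 0.185 for Pim3 and 0.000237 to 0.271 for Serpina6. All AM+CD libraries lay above all DMSO libraries for Pde7b, Serpina6 and Pim3, as for 2.39% of genes. The listed retinoid response genes Cyp26b1, Dhrs3, Rarb and Fmo5 all passed with the term, with a median log2 change of 3.18. That list was drawn up with earlier results of these data known, so this is a description.

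In AM+CD against DMSO, none of the nearest protein-coding genes on either side that were tested passed the threshold. Beside Serpina6, Serpina10 is described above and Serpina16 had too few reads to be tested. Beside Pim3, Creld2 had 0.21 ± 0.16 with the term and Ttll8, at 24907 bases, 2.57 ± 0.84, neither of which passed in edgeR. Ttll8 rested on 0.550, 0.0717 and 0.924 CPM in AM+CD cells. Beside Pde7b, Mtfr2 had 0.12 ± 0.14 and Ahi1 -0.10 ± 0.15. Beside Fam151a, Mroh7, at 2964 bases, had 0.70 ± 0.29 and Ssbp3 0.07 ± 0.15.

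The genes most like each member over the 15 libraries were ranked by Pearson's r of log2 CPM among 12331 genes, as a description, with depth and library set shared by all points. Pde7b was nearest to Enpp1 (r = 0.927), an ectonucleotidase, then Fmo5 (0.908), a flavin monooxygenase, and Gclc (0.887), an enzyme of glutathione synthesis. Enpp1 averaged 54.7 ± 3.19 CPM in AM+CD, 38.3 ± 4.61 in AM580, 25.1 ± 0.868 in CD3254, 41.1 ± 6.74 in 9cRA and 19.7 ± 0.729 CPM in DMSO cells, the same order of groups as Pde7b. Serpina6 was nearest to Zfp706 (0.922), Nrp2 (0.894) and Adh1 (0.890), and genes near Pim3 included Adh1 (0.882) and Fndc5 (0.874). Adh1, an alcohol dehydrogenase that can oxidise retinol, appears for both.

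Fam151a was nearest to Cfl2 (0.948), Kcna7 (0.946) and Lgi2 (0.941), and 4.22% of genes had an r over 0.8 with it, against 0.105% to 0.146% for the other members. With each library set's mean removed, its nearest genes were Dyrk2, Rrm2 and Fmo5 (0.871, 0.871 and 0.869). The nearest to Pde7b were then Itga2, Enpp1 and Tenm1 (0.972, 0.963 and 0.950), to Serpina6 Bmp7, Mest and Zfp706 (0.953, 0.926 and 0.913) and to Pim3 Car9, Dhrs3 and Aifm2 (0.958, 0.915 and 0.908). Car9 belongs to the low-oxygen list and Dhrs3 is a retinoid-responsive reductase. Among the members, r was 0.73 to 0.75 for Pde7b, Serpina6 and Pim3 with each other and 0.00 to 0.24 for Fam151a with the rest. With set means removed Fam151a had 0.65, 0.81 and 0.72 with Pde7b, Serpina6 and Pim3.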

How the data were processed

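Total RNA from 15 libraries of the 266-6 line was sequenced, and the authors deposited 1 table of raw read counts per gene. The submitters' processing notes name HISAT2 2.2.1, SAMtools 1.18, HTSeq and FastQC and the build mm10; they name neither strand setting nor annotation release. The table has 43432 gene identifiers, of which 42462 were matched to symbols, exon lengths and positions from GENCODE M21 (GRCm38), and 5 lines without a gene, left out of library sizes. These lines held 18.1% to 28.5% of reads in 14 libraries and 63.0% in 9cRA replicate 3.

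Counts were filtered with edgeR's default rule (16736 genes kept), scaled by TMM and tested with edgeR 4.0.16 quasi-likelihood fits over all 5 groups in R 4.3.3, with Benjamini-Hochberg adjustment over all genes. The fit was repeated with a term for library set (which side of 0 a library takes on principal component 1 of log2 CPM; prior count 2). Fits have 10 and 9 residual degrees of freedom. DESeq2 1.42.0, other size factors, no filter, a replicate block, the larger set alone and leaving out libraries were alternatives. RPKM divides CPM by exon length. The fits were run on simulated counts with a common spread for all genes and no difference between library sets. Those runs therefore cannot show how well the library set term handles such a difference. In every group the counts of replicates differed by more than sampling noise.

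The members and gene lists were chosen with earlier results of these data known. Genes named besides the members are the 3 most correlated with each (1 is not reported here), the nearest neighbours, and listed genes that are abundant or pass. Others (Pde3a, Pde8b, Prkar2a, Klf9, Cdkn1a, Colgalt2, Lpcat3) were named after their values were seen.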

Additional observations from a re-analysis of the deposited data

How the results depend on the processing

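The log2 changes against DMSO kept their sign under each alternative that used all libraries. AM580 and 9cRA against DMSO passed for Pim3 with DESeq2 only (1.07 for both). The replicate block gave 0.088 for the Fam151a interaction, which was -0.34 without it, and 7 genes called in AM+CD against DMSO instead of 3, with Pde7b at 2.54 (edgeR FDR = 0.0532). Whether the replicate numbers pair the libraries was not settled. Same-numbered libraries correlated from -0.68 to 0.81 (20 of 30 pairs over 0.1), and others from -0.70 to 0.76 (26 of 60 pairs). Of 15 libraries 7 correlated best with their own number. Library set was not removed from these correlations, and replicate 1 is in the smaller set for AM580, CD3254, 9cRA and DMSO. In the larger set alone the sign turned for the Pde7b interaction (-0.074), 9cRA against AM580 for Pde7b (-0.043), Fam151a (0.059) and Pim3 (0.25), and AM580 against CD3254 for Fam151a (-0.29). The library set term without 9cRA replicate 3 gave 0.0057 for Pim3 in 9cRA against AM580. The cause was not tested.

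Leaving out 1 library at a time, without and with the term, gave Fam151a values from -1.29 to 0.91 in 9cRA against AM580, -0.995 to 0.63 in 9cRA against CD3254, -1.69 to -0.080 in 9cRA against AM+CD, -0.25 to 1.76 in 9cRA against DMSO, -0.30 to 1.72 in AM+CD against AM580, -0.030 to 1.44 in AM+CD against CD3254, 0.70 to 2.57 in AM+CD against DMSO, -1.03 to 1.01 in AM580 against CD3254, -0.29 to 2.14 in AM580 against DMSO, -0.011 to 1.87 in CD3254 against DMSO and -1.44 to 0.98 for the interaction. Pde7b ranged from -0.20 to 0.49 in 9cRA against AM580 and -0.47 to 0.36 for the interaction. Pim3 ranged from -0.22 to 0.087 in 9cRA against AM+CD, -0.15 to 0.18 in 9cRA against AM580 and -0.078 to 0.24 in AM+CD against AM580. Serpina6 ranged from -0.068 to 0.64 in 9cRA against AM580, -0.59 to 0.91 for the interaction, 1.75 to 3.25 in AM+CD against DMSO, 0.55 to 2.05 in AM580 against DMSO, 0.29 to 1.79 in CD3254 against DMSO and 0.86 to 2.37 in 9cRA against DMSO.

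Counts of genes called without the term, with it, and at most under any alternative were 3, 21 and 24 in AM+CD against DMSO, 0, 5 and 10 in AM580 against DMSO and in 9cRA against DMSO, 0, 4 and 4 in CD3254 against DMSO, 0, 2 and 2 in AM+CD against AM580, 0, 5 and 8 in AM+CD against CD3254, 0, 1 and 1 in 9cRA against AM+CD, 0, 5 and 5 in 9cRA against CD3254 and 0, 2 and 3 in AM580 against CD3254. In AM+CD against DMSO, leaving out 1 of the 6 libraries compared lowered the 3 to 1 for AM+CD replicate 1, 2 for AM+CD replicates 2 and 3 and 0 for each DMSO replicate, and with the term the 21 to 13, 17 and 13 for AM+CD replicates 1, 2 and 3 and to 13, 14 and 11 for DMSO replicates 1, 2 and 3. With Fam151a, removing set means lowered r to 0.841 for Cfl2, 0.789 for Kcna7 and 0.767 for Lgi2. Reads of Pde7b and Fam151a, as few as 23 and 20 per library, limit their precision.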
